A study of Mus musculus with 8 samples.

Results

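The postsynaptic density genes described here are 37 genes for scaffold proteins, kinases and their partners on the receiving side of excitatory synapses. They were taken by gene symbol from a list, with at least 10 counts in at least 4 libraries required, and all 37 of the 37 met this among the 23284 genes of the count tables. RNA came from dorsal cortex of C57BL/6 mouse embryos at E15.5, with the meninges and ganglionic eminences removed. There were 4 libraries labelled WT (ErbB4+/+) and 4 labelled ErbB4 KO (ErbB4-/-). ErbB4 is a receptor tyrosine kinase for neuregulins. The ErbB4 KO mice carry a transgene that expresses ErbB4 in the heart under the α-MHC promoter, since loss of ErbB4 in the heart is lethal, and whether WT mice carry it is not stated. Each genotype was bred as its own homozygous line, and neither litters nor pooling of embryos is given, so p-values measure the spread between these libraries only. A gain or loss of RNA per cell and a gain or loss of cells of a type cannot be told apart in such bulk tissue.

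The postsynaptic density is a protein mesh under the membrane of the dendritic spine. MAGUK proteins bind glutamate receptors and their auxiliary subunits with PDZ domains, DLGAP proteins join the MAGUKs to SHANK proteins, and SHANK and Homer proteins form the deeper layer that meets actin. Calcium entering through NMDA receptors activates CaMKII, an abundant kinase of this structure, and exchange factors for small GTPases shape the spine. In the cortex most of this machinery builds up after birth, so the embryonic cortex is sampled before most excitatory synapses form.

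Depth was 28205703 to 48871480 counts per library, and the members together took 0.439% to 0.492% of them. Single members had 155 to 44006 counts in a library, and the common biological coefficient of variation was 10.7%. Counting error weighs most in Dlgap2 and Cacng3, the members with the fewest counts. Several libraries stood apart. WT replicate 1 had its lowest values in long genes: across 14439 genes, the Spearman correlation of its deviation with transcript length was -0.58. WT replicates 1 to 3 had 986 to 1699 CPM of Xist, the RNA of the inactive X chromosome, whereas WT replicate 4 and the 4 ErbB4 KO libraries had 2.69 to 3.82, so this difference and the genotype cannot be fully told apart. ErbB4 KO replicate 4 resembled the WT libraries in the progenitor markers given below. In the knockout check, Erbb4 (chr1) had 8.99, 19.9, 25.3 and 19.2 CPM in the WT libraries and 20.9, 24.6, 20.7 and 23.5 CPM in those labelled ErbB4 KO. The Erbb4 total was thus not lower in the libraries labelled ErbB4 KO (log2 fold change 0.28, SE 0.23, edgeR adjusted p = 0.812, and 0.06 without WT replicate 1), and it checks the labels only if the mutant allele makes no stable RNA. Neuronal RNA was abundant, with the sum of 10 neuron markers at 9561 to 9662 CPM in WT and 9664 to 10176 CPM in ErbB4 KO.

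Paralogues of these families are similar in protein sequence, and it was checked whether reads of 50 nucleotides could be credited to the wrong member. No stretch of 50 nucleotides in the longest coding transcript of a member occurred in a transcript of another member. One of the longest runs shared by Dlg paralogues and the longest shared by the IQSEC exchange factors are shown, all bases in lower case as no motif is marked. The 26 bases start at position 2324 of the Dlg1 and position 2157 of the Dlg2 transcript, and the 32 bases at position 2218 of the Iqsec1 and position 2821 of the Iqsec2 transcript, all within coding sequence of the GENCODE annotation of NCBIM37 (mm9).
Dlg1 and Dlg2: gtcattcaatgacaagcgtaaaaaga
Iqsec1 and Iqsec2: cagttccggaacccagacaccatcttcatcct
Both runs are shorter than a read. Dlg2 also shares runs of 26 bases with Dlg3 and with Dlg4, and within the CaMKII family Camk2b shares at most 32 bases in a row with Camk2a and 29 with Camk2g. In 6 other members 0.116% to 1.35% of the stretches of 50 nucleotides also occur in genes outside the list. Homer3 is the exception, since 28.6% of its stretches of 50 nucleotides are shared with transcripts of the neighbouring gene Ddx49, whose exons on the opposite strand overlap 25.4% of the Homer3 exons. The libraries did not keep strand, so reads of Homer3 and Ddx49 in this overlap cannot be told apart and the Homer3 values are uncertain.

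The promoters of 31 members are held in the RefSeq table (GRCm38.p6), with 50 start sites in all, and the 250 bases before each were searched on both strands. The GC box GGGCGG occurred in 50% of these windows and in 32.7% of all 32851 windows. The member windows were also richer in G and C (median 60.2% against 52.4%). Windows are shown for Camk2b (lowest p of the members), Dbn1 (highest CPM) and Grip2 (the single match to part of a repressor element). They are given 5′ to 3′ on the gene's strand with the matches in capitals.
Camk2b, chr11:6065749-6065998, minus strand, GC boxes in capitals: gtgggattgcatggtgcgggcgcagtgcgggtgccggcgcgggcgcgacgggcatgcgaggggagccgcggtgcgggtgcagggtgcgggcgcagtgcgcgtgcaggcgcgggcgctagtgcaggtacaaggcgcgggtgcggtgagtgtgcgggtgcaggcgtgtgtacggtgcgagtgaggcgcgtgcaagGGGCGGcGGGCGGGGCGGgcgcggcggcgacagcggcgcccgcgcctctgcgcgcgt
Dbn1, chr13:55488077-55488326, minus strand, GC boxes in capitals: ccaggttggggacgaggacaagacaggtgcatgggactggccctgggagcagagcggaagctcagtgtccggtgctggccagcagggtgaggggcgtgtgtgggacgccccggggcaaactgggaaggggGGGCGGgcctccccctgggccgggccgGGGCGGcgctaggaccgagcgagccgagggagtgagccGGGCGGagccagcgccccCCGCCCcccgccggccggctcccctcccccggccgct
Grip2, chr6:91807394-91807643, minus strand, RE1 left part in capitals: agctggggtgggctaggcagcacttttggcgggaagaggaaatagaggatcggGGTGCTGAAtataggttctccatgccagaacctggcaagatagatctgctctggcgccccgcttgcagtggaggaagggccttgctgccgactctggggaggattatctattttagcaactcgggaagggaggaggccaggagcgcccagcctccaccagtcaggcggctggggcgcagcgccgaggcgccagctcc
The left part of the RE1 element, TTCAGCACC, which is the binding element of the neuronal gene repressor REST, occurred in 1 of the 50 member windows (2%) and in 0.301% of all windows. The E-box CAGCTG occurred in 20% of the member windows and 13.0% of all windows, and the E-box CAGATG in 8% and 14.4%. The cAMP response element TGACGTCA was found in 0 of the 50 windows, beside 1.55% of all windows. A match in these windows is a description and does not show binding.

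The members were expressed over a wide range in this tissue. By mean CPM, 31 of the 37 lay at or above the 50th percentile of the 14696 genes tested. The median member was at percentile 70.9, the lowest at 26.7 and the highest at 99.5. These percentiles are not corrected for transcript length, and the members have longer transcripts than the tested genes (medians 4970 and 3168 nucleotides). Levels are compared between members as CPM per kilobase of the longest annotated transcript. Cacng8 is left out of this order because its annotated transcript of 663 nucleotides, the shortest of the members, may not be complete. The actin-binding protein drebrin (Dbn1) stood highest at 298 CPM per kb, followed by Cnih2, an AMPA receptor auxiliary subunit that also aids receptor export, at 215. Dlg4 (97.7), Ppp1r9b (88.4), Dlgap4 (63.8) and Camk2b (53.6) came next. At the low end were Cacng3 (4.59), Cacng2 (4.36), Lrrc7 (4.25) and Dlgap2 (2.26 CPM per kb). Cacng3 and Cacng2 did not differ beyond their spread, as Cacng3 was above Cacng2 in 5 of 8 libraries. This order depends on the length used. With the union of all exons in place of the longest transcript, Cnih2 (215) was above Dbn1 (208) and Ppp1r9b (78.4) above Dlg4 (72.5). Camk2b (24.2) was below Camk2g (26.5). At the low end, Camk2d (2.29) came next above Dlgap2 (1.65), and Cnksr2 (3.70) was below Cacng2 and Cacng3.

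**Figure D1:**
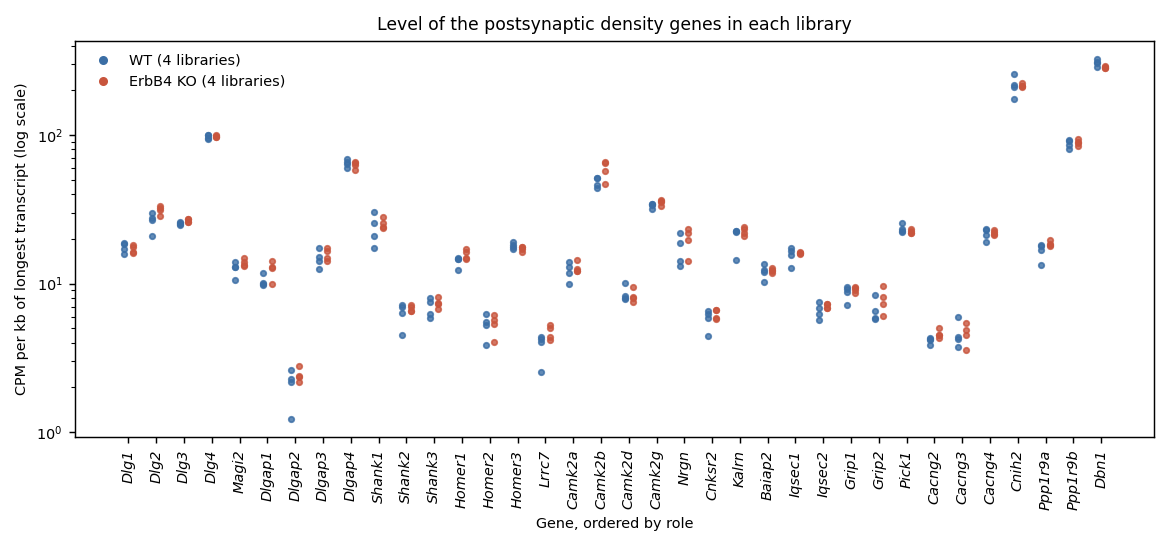
Level of 36 members in each library as CPM per kilobase of the longest transcript, on a log axis, with genes ordered by role and 1 point per library (4 WT, 4 ErbB4 KO). Dbn1 and Cnih2 lie highest and Dlgap2 lowest, and WT and ErbB4 KO points of a gene lie close together.

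Within families 1 paralogue usually led in every library. Dlg4, which encodes the scaffold PSD-95, was above Dlg2 in 8 of 8 libraries, with 58.4% ± 1.63 (SD, n = 4) of the Dlg family's CPM per kb in WT and 56.7% ± 0.902 in ErbB4 KO. Dlgap4 led its family with 70.4% ± 2.55 in WT and 67.3% ± 2.06 in ErbB4 KO. Shank1 held 63.9% ± 2.08 and 64.1% ± 0.597 of the Shank family. Homer3 held 48.3% ± 3.12 and 45.04% ± 2.61 of the Homer family, with the overlap with Ddx49 above. Camk2b, the β subunit of CaMKII, held 47.0% ± 1.48 and 50.8% ± 3.07 of the kinase family, whereas Camk2a, the α subunit that dominates the adult forebrain, held 11.8% ± 1.09 and 11.1% ± 0.797. In none of the 5 families did the share of the leading paralogue pass the exact two-sided permutation test between genotypes (p = 0.114 for Dlg4, Dlgap4 and Camk2b, 0.914 for Shank1 and 0.257 for Homer3, and 0.190 to 0.914 after Benjamini-Hochberg adjustment over the 5). The smallest p this test can give with 70 assignments is 0.0286, so a family shifting alone could not pass after the adjustment. The order rests on the length used: with the union of all exons in place of the longest transcript, Camk2b was above Camk2g in 2 instead of 8 libraries and Dlg2 above Dlg3 in 0 instead of 7, while Dlg4, Dlgap4, Shank1 and Homer3 still led in 8 of 8.

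The study compared WT with ErbB4 KO to find which transcripts depend on ErbB4. No member passed edgeR's quasi-likelihood test at an adjusted p of 0.05, beside 0.0272% of all tested genes (4 of 14696). DESeq2, which called 0.163% of all genes, and limma-voom also called 0 members. At an unadjusted p under 0.05 there were 3 members by edgeR (background 5.53% of all genes), 4 by DESeq2 (6.13%) and 3 by limma-voom (5.72%). The 3 by edgeR were Camk2b, Dlg2 and Dlgap1, each with a higher fitted level in ErbB4 KO (3% of all tested genes passed in this direction). With a library left out, edgeR gave 0 (without ErbB4 KO replicate 2) to 6 members (without WT replicate 2) under 0.05 in either direction. Among all genes these 2 fits gave 430 of 14813 and 1394 of 14823. The fitted log2 fold change was above 0 in 31 of the 37 members, beside 49.2% of all genes, with a median of 0.093 against -0.0021 over all genes. Differences were small: 28 members had a log2 fold change within 0.15 of 0, and for 32 members the 95% interval lay between -0.5 and 0.5. Without WT replicate 1, 23 members were higher, beside 49.3% of all genes, and the median was 0.032.

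**Figure D2:**
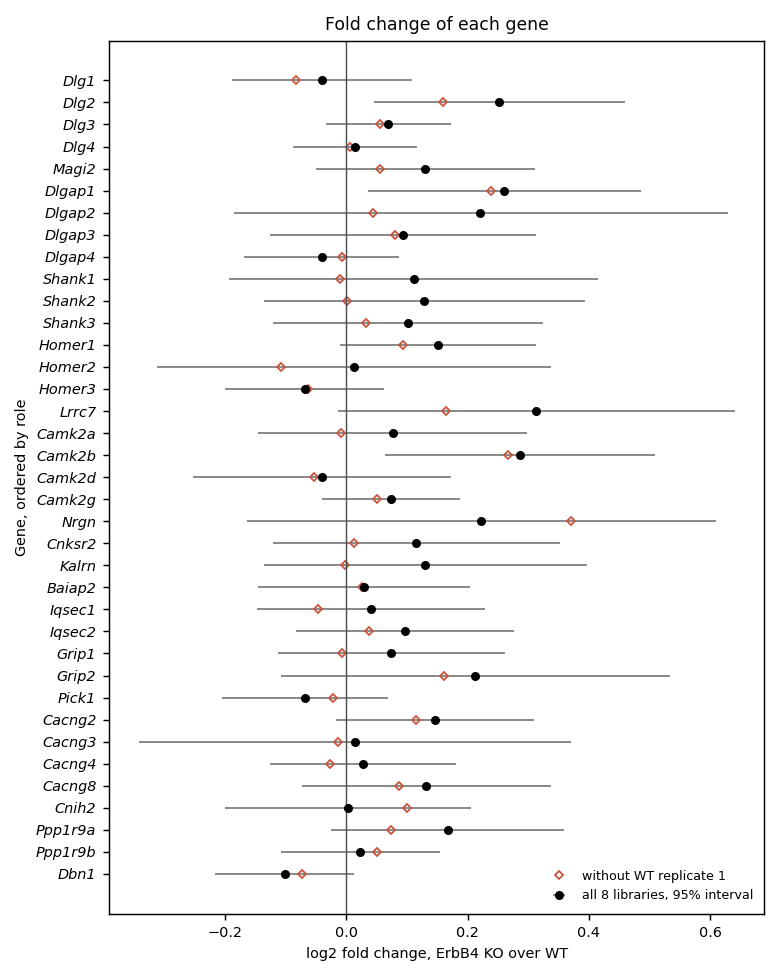
Log2 fold change of each of the 37 members, ErbB4 KO over WT, with its 95% interval (black points, all 8 libraries) and the value without WT replicate 1 (open diamonds). The intervals of Camk2b, Dlg2 and Dlgap1 lie above 0, and many values move towards 0 without WT replicate 1.

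Among the MAGUKs, Dlg2, which encodes PSD-93, had the lowest p. Dlg2 (chr7:97650473-99595513) was at 111, 157, 141 and 147 CPM in WT and at 166, 175, 171 and 149 CPM in ErbB4 KO. WT replicate 1 was the lowest library by far, at 74.9% of the mean of the other WT libraries, and ErbB4 KO replicate 4 lay inside the WT range. The log2 fold change was 0.25 (SE 0.095, unadjusted p = 0.0214, edgeR adjusted p = 0.810), and 0.16 without WT replicate 1. Dlg4 (chr11:69830587-69859034) was the steadiest, at 330, 345, 324 and 345 CPM in WT and 346, 338, 338 and 334 CPM in ErbB4 KO. Its groups overlapped throughout (log2 fold change 0.01, 95% interval -0.09 to 0.12). Dlg3 (chrX:97963061-98013749), which encodes SAP102 and is the MAGUK best known from young neurons, was at 124, 131, 128 and 127 CPM in WT and 131, 136, 137 and 131 CPM in ErbB4 KO. The WT library at the top touched the lower ErbB4 KO libraries (log2 fold change 0.07, SE 0.047, unadjusted p = 0.172, edgeR adjusted p = 0.810). Magi2, a related scaffold whose domains come in the inverted order, had 69.4, 92.0, 84.2 and 85.1 CPM in WT and 90.9, 97.8, 86.4 and 86.8 CPM in ErbB4 KO. WT replicate 1 was again lowest and the other 7 libraries overlapped (0.13 with all libraries, 0.06 without WT replicate 1, both as log2 fold changes). Dlg1, which encodes SAP97, was at 81.6 ± 5.86 CPM in WT and 79.4 ± 4.68 in ErbB4 KO.

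The DLGAP proteins link MAGUKs to SHANKs. Dlgap1 (chr17:70318413-71170753) had 70.9, 84.7, 70.4 and 72.9 CPM in WT and 102, 91.6, 93.1 and 71.2 CPM in ErbB4 KO. ErbB4 KO replicates 1 to 3 lay above every WT library and ErbB4 KO replicate 4 lay among them, at 74.5% of the mean of the other ErbB4 KO libraries. The log2 fold change was 0.26 (SE 0.10, unadjusted p = 0.0265, edgeR adjusted p = 0.810), 0.24 without WT replicate 1 and 0.35 without ErbB4 KO replicate 4 (adjusted p = 0.245). Dlgap4, the most abundant of the family, had 335, 312, 291 and 318 CPM in WT and 312, 317, 284 and 307 CPM in ErbB4 KO, with full overlap. Dlgap3 was at 62.1 ± 8.30 CPM in WT and 66.2 ± 6.53 in ErbB4 KO. Dlgap2 had the lowest level of the members per kb, and its WT libraries spread from 5.53 CPM in WT replicate 1 to 11.9, which contained 3 of the 4 ErbB4 KO values.

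The SHANK genes encode the large scaffolds beneath the DLGAP layer. Shank1, the most abundant, had 131, 230, 159 and 196 CPM in WT and 196, 214, 181 and 182 CPM in ErbB4 KO. The ErbB4 KO libraries all lay inside the WT range. Shank2 was at 56.1 ± 11.0 CPM in WT and 61.4 ± 2.75 in ErbB4 KO, and Shank3 at 50.9 ± 7.59 and 54.6 ± 4.44. The WT spread was wider than the ErbB4 KO spread in each of these 3 genes, and WT replicate 1 was lowest in each. Their median log2 fold change was 0.11, and 0.00072 without WT replicate 1.

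Homer proteins bind SHANKs and group 1 metabotropic glutamate receptors. Homer1 (chr13:94073712-94174917) had 70.8, 83.2, 84.5 and 84.2 CPM in WT and 83.9, 97.1, 92.8 and 84.8 CPM in ErbB4 KO. A single WT library was apart, and the lower ErbB4 KO libraries were level with the other 3 of WT. The log2 fold change was 0.15 (SE 0.074, unadjusted p = 0.0651, edgeR adjusted p = 0.810) and 0.09 without WT replicate 1. Homer3 had 47.5, 44.5, 46.0 and 49.7 CPM in WT and 44.8, 45.8, 42.5 and 45.7 CPM in ErbB4 KO. These values overlapped and may include reads of Ddx49. Homer2 varied widely within both genotypes, from 42.6 to 69.1 CPM in WT and from 44.4 to 67.8 in ErbB4 KO. Lrrc7, which encodes densin, a scaffold that binds CaMKII and SHANK, had the largest fitted log2 fold change of the members, 0.31 (SE 0.15, unadjusted p = 0.0587, edgeR adjusted p = 0.810). Lrrc7 (chr3:157745859-158225185) was at 16.3, 28.04, 26.1 and 27.4 CPM in WT and 27.1, 34.0, 28.2 and 32.6 CPM in ErbB4 KO. WT replicate 1 was at 60.1% of the other WT libraries, and without it the log2 fold change was 0.16. It was 0.20 with Xist as a covariate and 0.15 in the libraries with low Xist.

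Camk2b had the lowest p of the 37. Camk2b (chr11:5869647-5966365) was at 191, 212, 181 and 212 CPM in WT and at 269, 273, 235 and 193 CPM in ErbB4 KO. ErbB4 KO replicates 1 to 3 were above all WT libraries, and ErbB4 KO replicate 4 was inside the WT range at 74.4% of the other ErbB4 KO libraries. The log2 fold change was 0.29 (SE 0.10, 95% interval 0.06 to 0.51, unadjusted p = 0.0164, edgeR adjusted p = 0.810). It was 0.27 without WT replicate 1 and 0.38 without ErbB4 KO replicate 4. In the latter fit the unadjusted p by edgeR was 0.00066 and the edgeR adjusted p 0.232. No member had a lower adjusted p under the alternatives planned beforehand. The log2 fold change of Camk2b was 0.19 both with Xist as a covariate and in the libraries with low Xist. The other subunits had smaller fitted differences: Camk2g was at 125 ± 4.33 CPM in WT and 131 ± 5.34 in ErbB4 KO, Camk2a at 60.4 ± 8.80 and 63.6 ± 5.36 CPM and Camk2d at 37.4 ± 4.44 and 36.3 ± 3.85. CPM Nrgn, which encodes neurogranin, the calmodulin-binding protein that sets how much calmodulin is free for CaMKII, had 28.4, 24.2, 16.9 and 18.4 CPM in WT and 30.0, 28.3, 25.5 and 18.5 CPM in ErbB4 KO. It was among the 7 members whose value in WT replicate 1 was above the mean of the other WT libraries (143%). Its log2 fold change was 0.22, with 0.12 (without WT replicate 3) to 0.37 (without WT replicate 1) when a library was left out. It was 0.43 with Xist as a covariate and 0.48 in the libraries with low Xist.

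**Figure D3:**
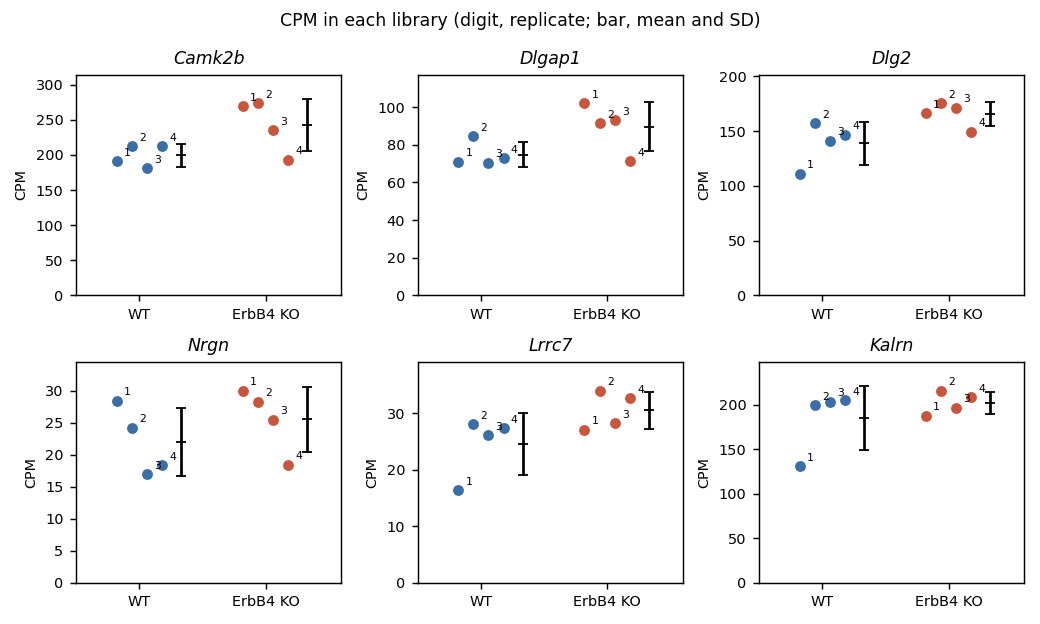
CPM of Camk2b, Dlgap1, Dlg2, Nrgn, Lrrc7 and Kalrn in each library, with the replicate number beside each point and the mean and SD of the 4 libraries as a bar, on axes from 0. ErbB4 KO replicate 4 lies near the WT libraries for Camk2b, Dlgap1 and Nrgn, and WT replicate 1 lies below the other libraries for Dlg2, Lrrc7 and Kalrn.

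Exchange factors and adaptors carry the signal on to small GTPases and actin. Per kb of the longest transcript, Kalrn, an exchange factor that enlarges spines, was the most abundant of them (21.5). Per kb of the union of all exons, Iqsec1 (13.9) was above Kalrn (10.4). Kalrn had 131, 200, 203 and 205 CPM in WT and 188, 216, 197 and 209 CPM in ErbB4 KO. Apart from WT replicate 1, the WT libraries lay within the ErbB4 KO range, and the log2 fold change was 0.13 with it and -0.0032 without it. The Arf exchange factors Iqsec1 and Iqsec2 had 101 ± 13.7 and 39.7 ± 4.60 CPM in WT and 104 ± 1.06 and 42.5 ± 1.53 CPM in ErbB4 KO. The scaffold of Ras signalling Cnksr2 was at 33.1 ± 5.21 CPM in WT and 35.9 ± 2.64 in ErbB4 KO, and Baiap2, which encodes the membrane-bending protein IRSp53, at 48.2 ± 5.35 and 49.2 ± 1.80 CPM. Of the 3 members on the X chromosome, Dlg3, Cnksr2 and Iqsec2, none had an unadjusted p under 0.05 by edgeR.

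Grip1, Grip2 and Pick1 encode PDZ proteins that bind the tails of AMPA receptor subunits and guide their traffic. Pick1 was the most abundant per kb, with 65.7, 60.0, 57.4 and 57.3 CPM in WT and 59.8, 57.6, 56.1 and 55.8 CPM in ErbB4 KO, and the groups overlapped. Grip1 was at 47.1 ± 5.71 CPM in WT and 49.6 ± 2.03 in ErbB4 KO and Grip2 at 36.8 ± 6.79 and 42.6 ± 8.27 CPM, with 0.21 as the log2 fold change of Grip2 (95% interval -0.11 to 0.53). Leaving out 1 library moved the value for Grip2 between 0.094 (without ErbB4 KO replicate 2) and 0.35 (without WT replicate 2).

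The auxiliary subunits of AMPA receptors include the TARPs, which tether the receptors to PSD-95. Cacng2, which encodes stargazin, was the single member whose genotypes did not overlap, beside 3.34% of all tested genes (1.86% higher in ErbB4 KO). Cacng2 (chr15:77822178-77950458) was at 21.3, 23.61, 23.36 and 23.1 CPM in WT and at 24.9, 27.8, 24.8 and 23.63 CPM in ErbB4 KO. The lowest ErbB4 KO library and the highest WT library were nearly level, and they overlapped when the genes tested were limited to a mean of at least 50 counts. The log2 fold change was 0.15 (SE 0.075, 95% interval -0.02 to 0.31, unadjusted p = 0.0749, edgeR adjusted p = 0.810). Cacng3 was at 6.97 ± 1.44 CPM in WT and 7.01 ± 1.20 in ErbB4 KO, Cacng4 at 75.5 ± 6.65 and 76.9 ± 3.07 CPM and Cacng8 at 12.7 ± 1.44 and 13.9 ± 0.537. CPM Cnih2 had 318, 268, 217 and 261 CPM in WT and 278, 265, 259 and 263 CPM in ErbB4 KO, so that the ErbB4 KO libraries sat in the middle of a wide WT range.

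The proteins that join the density to actin include the member with the highest CPM. Dbn1 (chr13:55574787-55589529) had 994, 935, 877 and 947 CPM in WT and 893, 875, 861 and 866 CPM in ErbB4 KO. The ErbB4 KO libraries lay at the low end, and WT replicate 3 overlapped them. Its log2 fold change of -0.10 (SE 0.053, unadjusted p = 0.0777, edgeR adjusted p = 0.810) was the lowest of the members. Ppp1r9a, which encodes neurabin, had 127, 174, 172 and 162 CPM in WT and 177, 188, 175 and 172 CPM in ErbB4 KO. WT replicate 1 lay far below the rest and the log2 fold change was 0.17 with it and 0.07 without it. Ppp1r9b, which encodes spinophilin, the partner that brings protein phosphatase 1 to spines, was at 395 ± 26.0 CPM in WT and 401 ± 17.2 in ErbB4 KO.

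Libraries of the same genotype differed among themselves. Over the 37 members, the mean deviation from the average of the 8 libraries, in log2 units, was -0.20, 0.09, -0.09 and 0.0092 in WT replicates 1 to 4, and 0.07, 0.12, 0.04 and -0.03 in ErbB4 KO replicates 1 to 4. WT replicate 1 was the lowest of the 8 libraries for 22 members (59.5%), beside 29.5% of all tested genes. In 13 members its value was under 80% of the mean of the other WT libraries, with Dlgap2 at 51.9%, Lrrc7 at 60.1%, Kalrn at 64.5% and Shank2 at 65.6%, while Nrgn (143%) and Cnih2 (128%), 2 short transcripts, were higher in it. In ErbB4 KO replicate 4, 5 members were under 80% of the other ErbB4 KO libraries: Nrgn (66.1%), Cacng3 (72.1%), Grip2 (72.4%), Camk2b (74.4%) and Dlgap1 (74.5%).

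**Figure D4:**
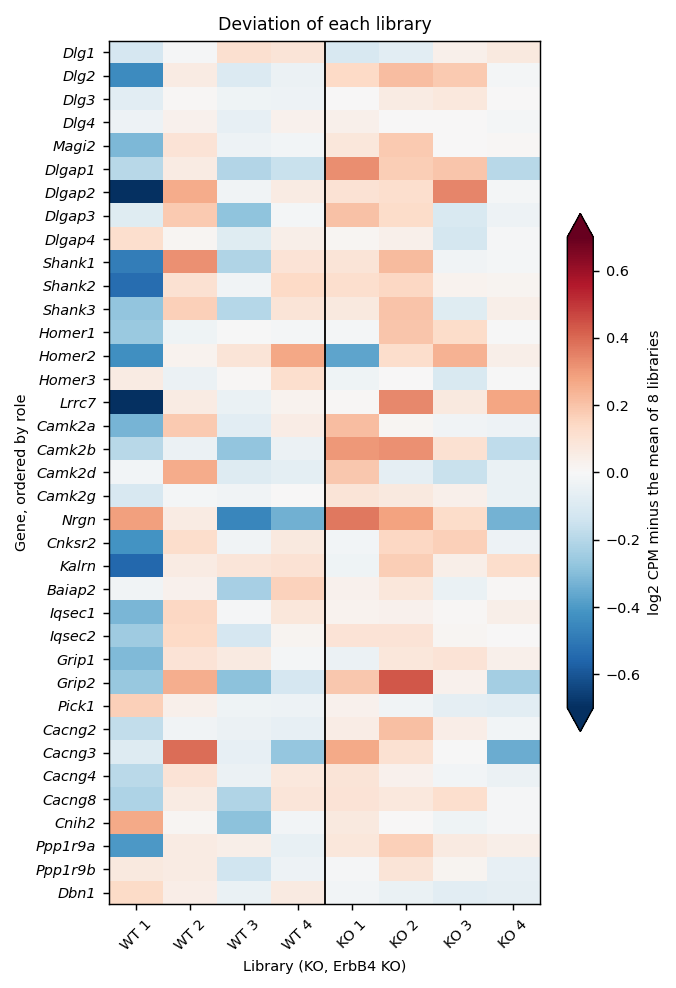
Heat map of log2 CPM minus the mean of the 8 libraries for each member (rows, by role) in each library (columns). Colours stop at 0.7 in either direction. WT replicate 1 is low for most members, and ErbB4 KO replicate 4 differs from the other ErbB4 KO libraries for Camk2b, Dlgap1, Nrgn, Grip2 and Cacng3.

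The members have long transcripts, with a median of 4970 nucleotides against 3168 over the tested genes. In WT replicate 1 the deviation of the members fell with transcript length (Spearman correlation -0.74 across the 37 genes, which share their libraries). The log2 fold change also rose with length, with a Spearman correlation of 0.40 across the members and 0.33 across 14439 genes, and without WT replicate 1 these were 0.020 and -0.022. Among 4181 tested genes with lengths between the members' quartiles, 62.2% had a log2 fold change above 0 (median 0.025), and without WT replicate 1 49.7% had (median -0.00075). After a smooth trend with length was removed in each library, 28 members were higher, beside 50.1% of all genes, and their median was 0.057. In the 5 libraries with low Xist, 21 members were higher (50.5% of all genes) with a median of 0.035, but this leaves 1 WT library. With Xist as a covariate in all 8 libraries, 24 members were higher (50.5% of all genes) with a median of 0.038. In that fit 0 members had an unadjusted p under 0.05 by edgeR, beside 1.69% of all genes.

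**Figure D5:**
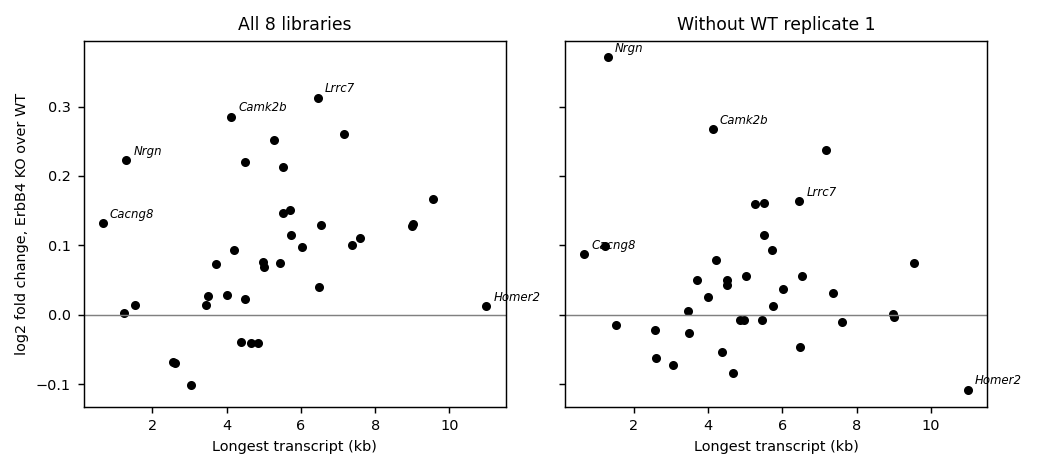
Log2 fold change of each member, ErbB4 KO over WT, against the length of its longest transcript in kb, with all 8 libraries (left) and without WT replicate 1 (right). The upward trend of the left panel (Spearman correlation 0.40) is absent in the right panel (0.020).

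Other genes of the excitatory synapse were looked at in lists. Of 37 further postsynaptic genes with a row, including receptors, neuroligins and actin regulators, 30 had a log2 fold change above 0 (median 0.080, beside 49.2% of all tested genes), 4 were higher at an unadjusted p under 0.05 (3% of all), and edgeR called 0. The 2 with the lowest p were Shisa9, an AMPA receptor auxiliary protein, with 16.0 ± 1.65 CPM in WT and 20.6 ± 2.34 in ErbB4 KO (log2 fold change 0.36, unadjusted p = 0.0043, edgeR adjusted p = 0.810), and Cnih3, a relative of Cnih2, with 49.1 ± 2.68 and 60.4 ± 7.002 CPM (log2 fold change 0.30, unadjusted p = 0.0044, edgeR adjusted p = 0.810). Of 20 presynaptic genes, 19 were above 0 (median 0.065), beside the same 49.2% of all genes, and edgeR called 0, with 1 higher at an unadjusted p under 0.05, Snap25. Without WT replicate 1 the counts were 30 and 18 (medians 0.040 and 0.057).

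Markers of cell types were measured beside the members. Over all tested genes 49.2% had a log2 fold change above 0. At an unadjusted p under 0.05 by edgeR, 3% of all tested genes were higher and 2.52% lower. Of 9 progenitor markers 0 had a log2 fold change above 0 (median -0.19), 4 were lower at an unadjusted p under 0.05 (2.52% of all tested genes) and edgeR called 0. Their summed level was 1950 to 2333 CPM in WT and 1828 to 2191 CPM in ErbB4 KO. Their mean deviation was 0.14, -0.06, 0.17 and 0.10 log2 units in WT and -0.15, -0.18, -0.13 and 0.10 in ErbB4 KO, so that ErbB4 KO replicate 4, in which Camk2b and Dlgap1 were at the WT level, also had progenitor markers at the WT level. Of 10 neuron markers 6 were above 0 (median 0.010, and 0.035 without WT replicate 1). Their sums were nearly level where the genotypes met, reaching 9662 CPM in WT and starting at 9664 CPM in ErbB4 KO. Among single tested genes, 1.86% did not overlap and were higher in ErbB4 KO. Neurod6, Neurod2, Tbr1 and Bcl11b of this list had log2 fold changes below 0. The sums of the astrocyte, oligodendrocyte lineage, microglia, endothelial, meningeal and interneuron lists overlapped between the genotypes, with median log2 fold changes of 0.089, 0.18, 0.046, -0.018, 0.025 and -0.017. Without WT replicate 1 these medians were 0.11, 0.16, 0.097, 0.052, 0.12 and -0.067, so that the endothelial one changed sign. All 5 oligodendrocyte lineage markers were above 0 (49.2% of all tested genes). Of these, 2 were higher at an unadjusted p under 0.05 (3% of all tested genes) and edgeR called 0. Of 5 astrocyte markers tested 3 were above 0, with 1 higher at an unadjusted p under 0.05 and 0 called by edgeR. That gene, the intermediate filament gene Gfap, was at 0.738 ± 0.159 CPM in WT and 1.51 ± 0.565 in ErbB4 KO (log2 fold change 0.99, unadjusted p = 0.0045, edgeR adjusted p = 0.810), with ErbB4 KO replicate 4 inside the WT range at 0.858 CPM. The gene with the next lowest p of the list, Aldoc, had a log2 fold change of -0.15 (unadjusted p = 0.055, edgeR adjusted p = 0.810). S100b of the astrocyte list and the meningeal marker Lum were too low to be tested, as were 5 of 9 red blood cell genes. Of the 4 red blood cell genes tested 1 was above 0 (median -0.67), edgeR called 0 and 2 were lower at an unadjusted p under 0.05. These were the embryonic globin genes Hba-x, at 6.24 ± 0.955 CPM in WT and 2.71 ± 1.63 in ErbB4 KO (log2 fold change -1.21, unadjusted p = 0.0022, edgeR adjusted p = 0.740), and Hbb-y, at 26.6 ± 9.14 and 8.20 ± 6.89 CPM (log2 fold change -1.71, unadjusted p = 0.0027, edgeR adjusted p = 0.810). ErbB4 KO replicate 4 was the highest ErbB4 KO library for both, at 5.08 and 18.3 CPM. The part of these marker lists in the values of the members was not tested.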

How the data were processed

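Single-end reads of 50 nucleotides from polyA RNA were aligned by the authors to mm9 using HISAT, and HTSeq gave the number of reads per gene. Versions, annotation and counting mode are not given in the sources used here. The deposited values are raw counts per gene symbol. A deposited DESeq2 table (mean normalized counts, log2 fold changes, standard errors, Wald statistics and p-values) was not used. Groups were taken from the labels, 4 WT and 4 ErbB4 KO. Counts were fitted with edgeR 4.0.16 in R 4.3.3 (TMM, glmQLFit and glmQLFTest, after filterByExpr at a count of 10 and a total of 15), with Benjamini-Hochberg adjustment over 14696 genes and a threshold of 0.05. Library values are CPM after TMM scaling, with a prior count of 2 in log2 values. For single values, all 70 assignments of the libraries were enumerated in an exact permutation test (two-sided). Intervals are 95% intervals of the fit. Positions and lengths came from GENCODE for NCBIM37 (mm9), and promoters from RefSeq (GRCm38.p6).

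The members and lists were chosen with earlier results of these data known. All 37 members are named. Values of every library are given for the 10 with the lowest p and for the most abundant per kb in each role, and those of Magi2, Nrgn and others where a library is singled out. Alternatives were DESeq2 1.42.0, limma-voom (limma 3.58.1), other scalings and filters, the replicate number as a block, removal of a length trend (lowess, span 0.3), Xist as a covariate or low-Xist libraries only, other thresholds, and each library left out. Leaving out WT replicate 1 and ErbB4 KO replicate 4 together was added after seeing the data. On simulated data with 200 changed genes of 14608, edgeR recovered 94 of 100 genes changed by 1 on the log2 scale. It recovered 57 of 100 changed by 0.5, with 6 false calls. These changes were larger than any fitted for a member (at most 0.31, Lrrc7). The simulated libraries held no length trend and no Xist difference, so power for the members was not measured. Plots were made in Python 3.11.15 with matplotlib 3.10.9.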

Additional observations from a re-analysis of the deposited data

Results flagged for a closer look

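In 3 of the 74 groups of 4 libraries (37 members, 2 genotypes), 1 library stood apart by Dixon's test at the 95% level, and chance alone gives about 1 in 20. Each time it was WT replicate 1: Homer1 at 70.8 CPM, Lrrc7 at 16.3 CPM and Kalrn at 131 CPM, where the gap to the nearest WT library was 0.905, 0.833 and 0.927 of the range of the group. These 3 transcripts are longer than the median of the tested genes, and the same library was low for long transcripts in general, as given above. The part of RNA quality or library preparation in this was not tested.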

How the results depend on the processing

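No member passed an adjusted p of 0.05 under any alternative. Over the alternatives planned beforehand, the lowest adjusted p of a member was 0.232. The added fit without both WT replicate 1 and ErbB4 KO replicate 4 also called 0 members, but its single adjusted p-values are not part of that minimum. The count of genes called over all tested genes was 4, and 24 by DESeq2, 2 after removal of the length trend, 1 under relative log expression or upper-quartile scaling, with Xist as a covariate, with low-Xist libraries only and at a threshold of 0.01, and 1 to 13 with a library left out. Without both WT replicate 1 and ErbB4 KO replicate 4 it was 27, and 7 members did not overlap between genotypes, beside 16.3% of all genes. That count was 1 with all libraries (3.34% of all genes), 2 with no filter (2.87%), 0 with a mean of at least 50 counts (3.34%) or without the length trend (3.44%), 13 with low-Xist libraries (42.1%), and 1 to 6 with a library left out (4.54% to 9.97%), with 6 without WT replicate 2 (9.53%) and 6 without ErbB4 KO replicate 4 (9.97%). With a library left out, the members above 0 numbered 23 (without WT replicate 1) to 32 (without WT replicate 2), with medians of 0.032 to 0.16. They numbered 21 with low-Xist libraries (median 0.035) and 24 with Xist as a covariate (median 0.038), beside 31 (median 0.093) with all libraries. With the replicate number as a block, 1 gene and 0 members were called, and 6 members had an unadjusted p under 0.05, beside 1025 of 14696 genes. Same-numbered libraries deviated together weakly (correlations 0.024 to 0.13), so the numbers were not taken as pairs.

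Some members changed sign, among them Cacng8 (0.13), Kalrn (0.13), Shank2 (0.13), Cnksr2 (0.12) and Shank1 (0.11), which were above the members' median with all libraries. With Xist as a covariate these were Dlg4 (-0.025), Shank2 (-0.035), Shank3 (-0.015), Homer2 (-0.21), Camk2d (0.056), Baiap2 (-0.15), Iqsec1 (-0.031), Cacng4 (-0.048) and Cacng8 (-0.012) in log2 fold change, with low-Xist libraries Dlg4 (-0.024), Shank1 (-0.0202), Shank2 (-0.064), Shank3 (-0.031), Homer2 (-0.25), Camk2a (-0.0031), Camk2d (0.058), Cnksr2 (-0.00035), Kalrn (-0.0203), Baiap2 (-0.14), Iqsec1 (-0.052), Pick1 (0.0016), Cacng4 (-0.057) and Cacng8 (-0.016), and without the length trend Homer2 (-0.083), Iqsec1 (-0.011) and Ppp1r9b (-0.0040). With a library left out, the ranges were Baiap2 -0.0393 to 0.0906, Cacng3 -0.078 to 0.163, Cacng4 -0.0263 to 0.0639, Camk2a -0.00825 to 0.154, Camk2d -0.116 to 0.047, Cnih2 -0.0835 to 0.0996, Dlg4 -0.00335 to 0.0271, Grip1 -0.00704 to 0.119, Homer2 -0.108 to 0.124, Iqsec1 -0.047 to 0.0989, Kalrn -0.0032 to 0.184, Ppp1r9b -0.0179 to 0.0497 and Shank1 -0.0101 to 0.253. The causes were not tested. Depth limits Dlgap2 and Cacng3 most, and intervals of the members span 0.41 log2 units at the median.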
